A study of Mus musculus with 16 samples.

Results

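The transcripts of 5 cytokine genes, Il4, Il5, Il9, Il13 and Csf2 (which encodes GM-CSF), were followed in mouse group 2 innate lymphoid cells (ILC2s) across 6 groups of tissue and time. The genes were taken as a fixed list of the type 2 cytokines plus GM-CSF, and all 5 were among the 22180 genes that had a probe set with 1 gene symbol. Where a gene had several such probe sets, the one with the highest mean was used, which applied to Csf2 with its 2 probe sets. The mLN groups were ILC2s from the lung-draining mediastinal lymph node at day 4 (n = 3 arrays) and week 2 (n = 3) after IL-33, an alarmin cytokine, was given intranasally. The lung groups were naive ILC2s (n = 2 arrays) and ILC2s at day 4 (3 arrays), at week 2 (3 arrays) and at 4 months (2 arrays) after the same treatment. The lung samples were labelled as C57BL/6J, and no strain label was used for the mLN samples. No naive or 4-month mLN group was analysed here. The sources used here do not give the dose of IL-33, the sort gate or the number of mice per sample. The arrays were labelled as biological replicates, and their small number limits the precision of every value.

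ILC2s are tissue lymphocytes without antigen receptors that respond to alarmins such as IL-33 by secreting type 2 cytokines. IL-5 sustains eosinophils, and IL-13 drives mucus production, airway reactivity and alternative activation of macrophages. IL-4 shares a receptor chain with IL-13 and is the cytokine best known for T helper 2 differentiation and for class switching to IgE in lymph nodes. GM-CSF acts on macrophages, granulocytes and dendritic cells, and IL-9 is a growth and survival factor for mast cells and for ILC2s themselves. The transcription factor GATA3 binds across the cytokine locus and directs its transcription in type 2 lymphocytes.

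In the RefSeq annotation of GRCm38.p6, 4 of the 5 genes lie in 1 stretch of chromosome 11, in the order Il4, Il13, Rad50, Il5 and, after 6 further protein-coding genes, Csf2. Il9 lies apart on chromosome 13. The 250 bases before the outermost annotated start of each of the 4 linked genes are shown because these neighbours were not all highest in the same group. They are given 5′ to 3′ on the gene's strand. Capitals mark matches on either strand to the GATA-type form AGATAA, its variant AGATAG, the related form TGATAA or its variant TGATAG, and to the NFAT-type form GGAAA, none of which overlapped another here.
Il4, chr11:53618666-53618915, minus strand: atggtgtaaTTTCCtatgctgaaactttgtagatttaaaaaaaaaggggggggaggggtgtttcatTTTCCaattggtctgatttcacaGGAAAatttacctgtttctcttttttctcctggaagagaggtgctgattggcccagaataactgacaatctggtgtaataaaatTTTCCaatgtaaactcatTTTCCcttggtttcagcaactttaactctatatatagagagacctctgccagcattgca
Il13, chr11:53634703-53634952, minus strand: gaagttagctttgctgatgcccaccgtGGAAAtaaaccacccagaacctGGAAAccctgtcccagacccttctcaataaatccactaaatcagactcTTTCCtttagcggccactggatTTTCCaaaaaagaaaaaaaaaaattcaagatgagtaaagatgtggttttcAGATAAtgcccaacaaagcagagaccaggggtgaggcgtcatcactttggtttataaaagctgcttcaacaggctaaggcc
Il5, chr11:53720544-53720793, plus strand: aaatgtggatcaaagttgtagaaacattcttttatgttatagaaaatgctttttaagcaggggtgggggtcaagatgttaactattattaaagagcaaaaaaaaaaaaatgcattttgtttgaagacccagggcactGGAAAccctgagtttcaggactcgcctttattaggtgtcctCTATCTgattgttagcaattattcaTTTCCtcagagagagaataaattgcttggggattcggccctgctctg
Csf2, chr11:54249900-54250149, minus strand: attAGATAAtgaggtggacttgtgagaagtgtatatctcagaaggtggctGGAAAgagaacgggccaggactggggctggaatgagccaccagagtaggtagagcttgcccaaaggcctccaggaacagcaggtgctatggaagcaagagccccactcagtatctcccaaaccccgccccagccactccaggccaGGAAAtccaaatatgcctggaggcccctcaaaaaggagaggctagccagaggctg

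The Il4 window held 5 NFAT-type matches and 0 GATA-type matches, and the Il13 window 4 and 1. Il5 and Csf2 each had 2 NFAT-type matches and 1 GATA-type match. The GATA-type match began 81 bases before the start of Il13 and 72 bases before that of Il5, against 247 bases for Csf2. The second annotated start of Il4 had 1 GATA-type match and 0 NFAT-type matches in its own 250 bases. Of 32851 such windows in the RefSeq table, 26.5% held a GATA-type form and 55.6% the NFAT-type form. A match describes letters in this window and not a bound site, and a window without one says nothing about the factor.

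The cells carried ILC2 transcripts in each group, and some groups also differed in transcripts of other cells. The mean of 11 ILC2 markers, among them Gata3, Il7r, Thy1 and Il17rb, lay between 9.10 and 9.37 on the mLN arrays and between 8.91 and 9.53 on the lung arrays on the deposited log2 scale (ILC2 receptor gene Il1rl1 was not analysed here). T cell markers averaged 5.10 to 5.51 on the 14 arrays after IL-33 and stood higher, at 6.87 and 6.78, on the naive arrays. NK cell markers averaged 4.79 to 4.85 on the naive and 4.28 to 4.97 on the 4-month arrays, against 3.27 to 4.12 on the others. Macrophage markers averaged 6.23, 6.13 and 4.56 on day 4 lung replicates 1, 2 and 3 and 4.22, 4.04 and 5.49 at week 2, against 3.58 to 3.88 on the mLN arrays. The naive and 4-month arrays had a narrower signal range, with interquartile ranges over all genes of 2.05 to 2.47 on these and 2.85 to 3.07 on the other arrays. The part of these differences in the comparisons with naive lung or with 4-month lung was not tested. In bulk RNA of this kind, fewer expressing cells and less RNA per cell cannot be told apart.

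**Figure D1:**
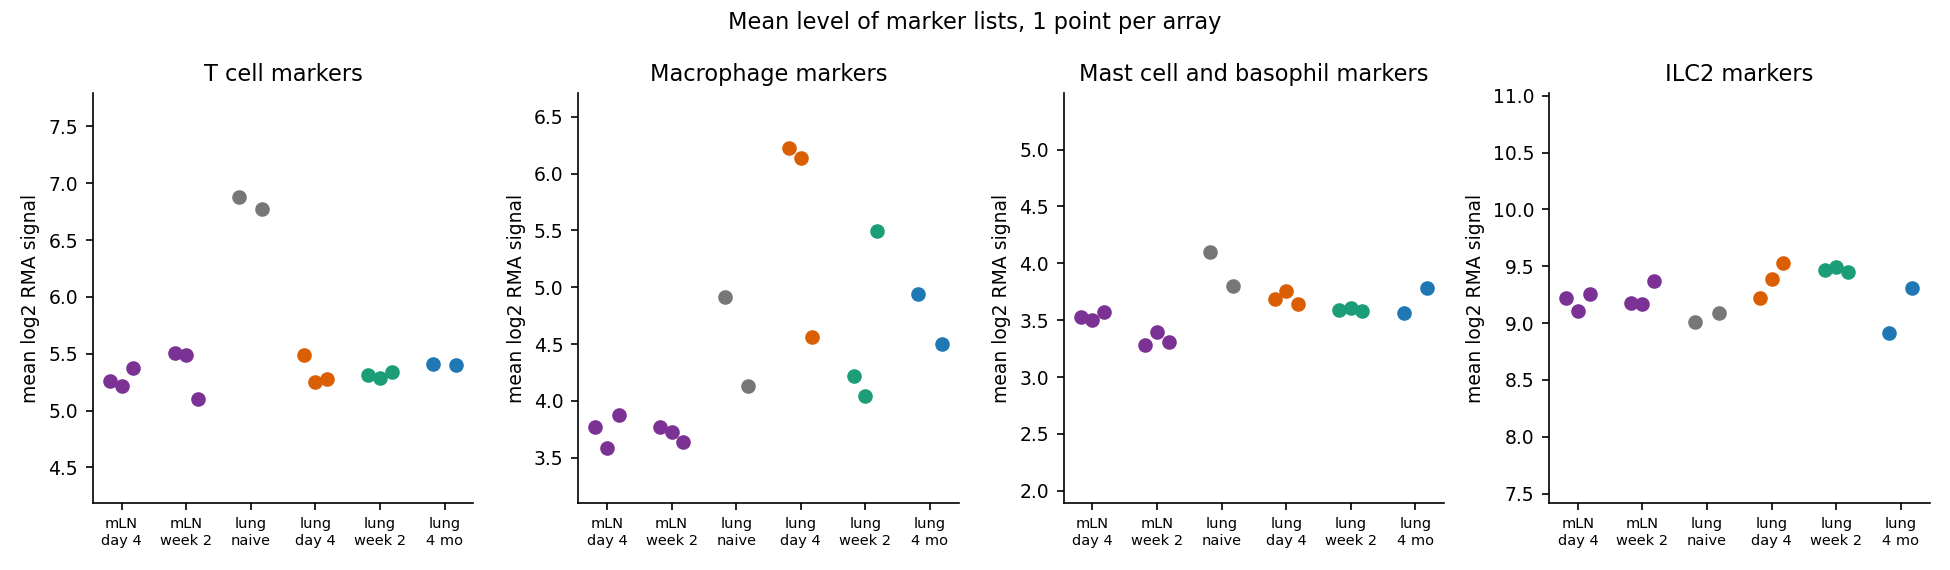
Mean log2 RMA signal of 4 marker lists on each array (1 point per array, groups along the x axis, each panel spanning the same number of log2 units). T cell markers are highest on both naive arrays, macrophage markers vary between arrays of the day 4 and week 2 lung groups, and the mLN arrays are lowest in macrophage markers.

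Among the 6 groups, 4 of the 5 cytokine genes differed by limma's moderated F test with Benjamini-Hochberg adjustment over all genes, where 29.3% of all genes did. Adjusted p values were 4.21e-08 for Il4, 0.00256 for Il13, 0.00424 for Csf2 and 0.00968 for Il5. Il4 had the 13th highest F of 22180 genes. Il9 missed the threshold at an adjusted p of 0.161. The groups at the top differed between the genes: Il4 was highest in week 2 mLN, Il13, Il5 and Il9 in day 4 lung, and Csf2 in week 2 lung.

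**Figure D2:**
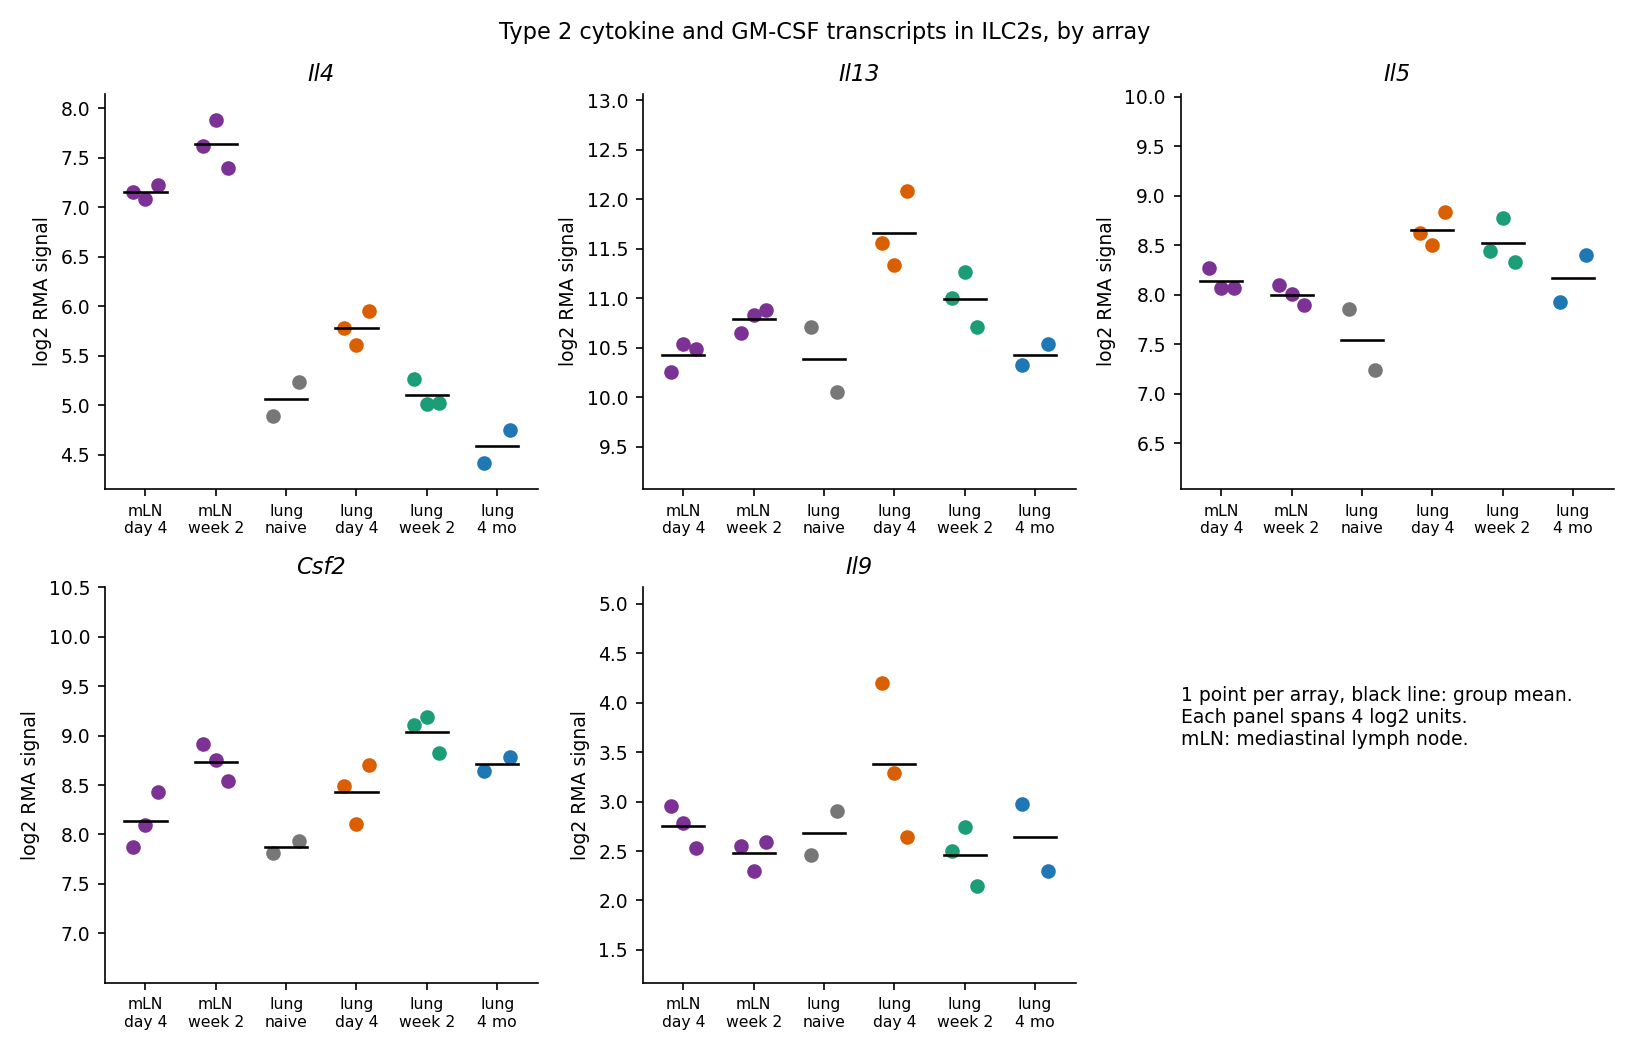
Log2 RMA signal of the 5 cytokine genes on each of the 16 arrays (1 point per array, black line at the group mean, each panel spanning 4 log2 units). All 6 mLN arrays lie above all 10 lung arrays for Il4, while the 3 day 4 lung arrays are the highest for Il13.

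Il4 was higher in lymph node ILC2s than in lung ILC2s at both times. At day 4 it stood at 7.15, 7.09 and 7.23 on the mLN arrays, against 5.78, 5.61 and 5.95 on the lung arrays. At week 2 it stood at 7.62, 7.88 and 7.40 on the mLN arrays, against 5.26, 5.02 and 5.02 on the lung arrays. The groups did not overlap at either time, and the lowest of the 6 mLN arrays (7.09) lay above the highest of the 10 lung arrays (5.95).

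The difference in Il4, mLN minus lung, was 1.38 ± 0.18 at day 4 on the log2 scale (SE, limma adjusted p = 0.000219), a 2.60-fold higher signal in the mLN. At week 2 it was 2.54 ± 0.18 (limma adjusted p = 6.06e-07), or 5.80-fold. Of 22180 genes, 4 had a larger rise than Il4 in week 2 mLN over week 2 lung and 2 had a smaller p. At day 4 its rise ranked 96th. The call at week 2 passed under all 10 alternative settings and without any 1 of the 6 arrays, with log2 differences between 2.41 and 2.65. The lung arrays with the 3 highest macrophage marker means (replicates 1 and 2 of day 4, replicate 3 of week 2) were also left out together, which left 1 day 4 lung array, whose spread was taken from the other groups. The day 4 difference was 1.21 at an adjusted p of 0.0574, and the adjusted p ranged between 2.49e-05 and 0.0574 over the 10 alternatives.

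The gap between the tissues widened in value from day 4 to week 2. The mLN mean of Il4 was 0.48 ± 0.18 higher at week 2 than at day 4, and the lung mean was 0.68 ± 0.18 lower, with adjusted p values of 0.312 and 0.0631. The ranges of the 2 times did not overlap in either tissue. The difference between these changes was 1.16 ± 0.25 (95% interval 0.63 to 1.68) and missed the threshold at a limma adjusted p of 0.0781, with 0 of the 5 genes called against 0.18% of all genes and 2 of 5 at an unadjusted p under 0.05. It passed with array weights (adjusted p = 0.0126) and when the 4 groups were fitted by themselves (adjusted p = 0.0385), over a range of 0.0126 to 0.368 for the 10 alternatives.

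Within the lung, Il4 was higher at day 4 than in naive cells, which stood at 4.89 and 5.23. The rise was 0.72 ± 0.20 (limma adjusted p = 0.0202), or 1.64-fold. The call was lost with array weights (0.68, adjusted p = 0.111), with repeated quantile normalization (0.49, 0.176), with both groups fitted by themselves (0.72, 0.0933) and without the 3 macrophage-high arrays (0.88, 0.122). It was also lost without naive replicate 1 (0.54, 0.141), day 4 replicate 1 (0.71, 0.0533) or day 4 replicate 3 (0.63, 0.0630). At week 2 the difference from naive lung was 0.04 ± 0.20 (95% interval -0.38 to 0.45). Il4 was lowest at 4 months, at 4.42 and 4.75, below each array of the other lung groups. It fell by 1.20 ± 0.20 at 4 months relative to day 4 (adjusted p = 0.000531), a call that all alternatives and left-out arrays kept. Markers of other cells that moved between these groups are given with the fall of Il13. The difference from naive lung was -0.48 ± 0.21 and did not pass (adjusted p = 0.264).

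Other cells that can make IL-4 were looked for in the same arrays. Of 9 T cell markers, 0 passed by limma between mLN and lung at day 4 or at week 2, where 2.33% and 0.78% of all genes did. At an unadjusted p under 0.05 there were 0 at day 4 and 3 at week 2, 2 of these higher in mLN and 1 lower. The mean of the 9 markers lay at 5.10 to 5.51 on the mLN arrays and 5.26 to 5.49 on the day 4 and week 2 lung arrays. The mean of 12 mast cell and basophil markers was 3.28 to 3.57 on the mLN arrays and 3.58 to 3.76 on those lung arrays, with 0 higher and 1 lower in mLN at both times. The lower one was Kit, which ILC2s also express, at -2.28 ± 0.20 and -2.32 ± 0.20. Kit is part of the mean of the 12 markers. It averaged 7.17 and 7.43 in day 4 and week 2 mLN, against 9.45 and 9.75 in lung. The mean without Kit was not computed, so the lower list mean in mLN is not read as fewer such cells. Cpa3, the mast cell carboxypeptidase gene, averaged 8.50 and 5.13 in day 4 and week 2 mLN, against 7.31 and 6.33 in lung of the same days, and neither difference passed. The basophil protease gene Mcpt8 averaged 3.02 and 2.86 in day 4 and week 2 mLN, against 3.02 and 3.00 in lung, and the high-affinity IgE receptor gene Fcer1a 1.72 and 1.76 in mLN against 1.71 and 1.49. Of 6 eosinophil markers, 1 was higher in mLN, the eotaxin receptor Ccr3, at 5.41 to 6.35 on the 6 mLN arrays against 1.90 to 3.96 on the 10 lung arrays, and its part in the Il4 difference was not tested. The eosinophil granule genes Epx, Prg2 and Prg3 averaged 3.24, 3.68 and 2.77 in day 4 mLN and 2.83, 4.61 and 2.95 in day 4 lung. At week 2 they averaged 3.10, 3.45 and 2.63 in mLN and 3.07, 3.79 and 3.06 in lung. The part of any of these other cells in the Il4 difference was not tested.

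Il13 was highest in day 4 lung ILC2s. It reached 11.55, 11.34 and 12.08 on the day 4 lung arrays, against 10.71 and 10.06 on the naive arrays. Its mean signal ranked above that of 99.7% of genes, and the naive cells already carried it. The rise at day 4 was 1.28 ± 0.24 (SE, limma adjusted p = 0.00225), or 2.42-fold, and passed under all 9 alternatives and without any 1 array. With all arrays, 3 of the 5 genes were called against naive lung at day 4, all higher, where 16.6% of all genes were called and 10.8% were higher. Between the same groups 6 of 9 T cell markers and 3 of 6 NK cell markers were lower and 4 of 13 macrophage markers higher at day 4. Without the 3 macrophage-high arrays the rise of Il13 was 1.70 (adjusted p = 0.00788).

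At week 2 Il13 stood at 11.01, 11.26 and 10.71 in the lung and at 4 months at 10.32 and 10.53. The 4-month arrays lay below those of week 2, and those of week 2 below those of day 4. Il13 fell by 1.23 ± 0.24 at 4 months relative to day 4 (limma adjusted p = 0.00203), where 2 of the 5 genes, Il13 and Il4, were called, both lower. Of all genes 25.6% were called there and 16.6% were lower. Between the same groups 5 of 6 NK cell markers were higher at 4 months (list means of 4.28 to 4.97, against 3.53 to 3.78 at day 4) and 1 of 6 neutrophil markers was higher (list means of 5.37 to 5.59, against 3.34 to 5.36). Of 13 macrophage markers 3 were lower, and of 11 ILC2 markers 4 were lower and 1 higher. The part of these markers, and of the narrower signal range of the 4-month arrays, in the falls of Il13 and Il4 was not tested. The step from day 4 to week 2 was -0.67 ± 0.22 (adjusted p = 0.177) and that from week 2 to 4 months -0.57 ± 0.24 (adjusted p = 0.117), and neither passed. Relative to naive lung, Il13 differed by 0.61 ± 0.24 at week 2 (adjusted p = 0.124) and by 0.05 ± 0.27 at 4 months (95% interval -0.52 to 0.61). These comparisons share their naive or day 4 arrays.

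In the lymph node Il13 took the opposite direction from Il4 at day 4. It stood at 10.26, 10.54 and 10.49 on the day 4 mLN arrays, all below the lowest day 4 lung array (11.34). The difference, mLN minus lung, was -1.23 ± 0.22 (limma adjusted p = 0.00379), a 2.35-fold lower signal in the mLN. Of the 5 genes, 2 were called in this comparison, Il4 higher and Il13 lower, and 2.33% of all genes were called. The Il13 call passed under all 10 alternatives, with values between -1.66 and -1.16. Of 13 macrophage markers 4 were lower in day 4 mLN and 0 higher, and without the 3 macrophage-high arrays the Il13 difference was -1.66 (adjusted p = 0.0129).

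By week 2 the tissues overlapped in Il13, which stood at 10.65, 10.83 and 10.88 on the mLN arrays. The difference from week 2 lung was -0.21 ± 0.22 (95% interval -0.67 to 0.25, adjusted p = 0.855). Il4 was then the 1 of the 5 genes called between the tissues, where 0.78% of all genes were called and 0.334% were higher in the mLN. Week 2 minus day 4 in the mLN was 0.36 ± 0.22 for Il13 (adjusted p = 0.735). The change from day 4 to week 2 in mLN minus that in lung was 1.03 ± 0.31 (adjusted p = 0.317), which did not pass.

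Il5 stayed raised at week 2 where Il13 did not pass. It stood at 8.62, 8.50 and 8.83 on the day 4 lung arrays and at 8.45, 8.78 and 8.34 at week 2, against 7.86 and 7.23 on the naive arrays. Both groups lay above the naive range. The rise was 1.10 ± 0.22 at day 4 (limma adjusted p = 0.00279), or 2.15-fold, and 0.97 ± 0.22 at week 2 (adjusted p = 0.0112), or 1.96-fold. The 2 rises share the naive arrays, and whether Il5 and Il13 differ in their time course was not tested.

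The rise of Il5 at day 4 passed under all 9 alternatives and without any 1 array. The call at week 2 was lost with array weights (0.96, adjusted p = 0.0521), repeated quantile normalization (0.66, 0.0872) and fitting both groups by themselves (0.97, 0.0848), and without naive replicate 2 (0.66, 0.103) or week 2 replicate 2 (0.84, 0.0503). At 4 months Il5 stood at 7.93 and 8.41, above both naive arrays, with a difference of 0.62 ± 0.24 (95% interval 0.12 to 1.12) that did not pass (adjusted p = 0.190). Without naive replicate 1 it passed, at 0.93 and an adjusted p of 0.0466.

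On the mLN arrays Il5 stood at 8.27, 8.06 and 8.07 at day 4 and at 8.10, 8.0 and 7.89 at week 2. These values lay below the lung arrays of the same day without overlap, and above the naive lung arrays. The differences, mLN minus lung, were -0.52 ± 0.19 at both times, with adjusted p values of 0.282 and 0.362, so neither was called. Week 2 minus day 4 in the mLN was -0.14 ± 0.19 (adjusted p = 0.961).

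Csf2 was highest in week 2 lung ILC2s. It stood at 9.11, 9.19 and 8.82 on the week 2 lung arrays, against 7.82 and 7.93 on the naive arrays, a rise of 1.17 ± 0.22 (limma adjusted p = 0.00369), or 2.24-fold. Of the 5 genes 2 were called at week 2 against naive lung, Csf2 and Il5, both higher, where 9.62% of all genes were called and 6.75% were higher. The second Csf2 probe set, at lower signal, read 5.54, 5.30 and 5.20 at week 2, against 4.76 and 4.73 in naive cells. Its difference of 0.60 did not pass (adjusted p = 0.107), while the other 9 alternatives and each fit with an array left out called Csf2.

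At day 4 the lung arrays of Csf2 stood at 8.49, 8.10 and 8.70, above the naive arrays, with a difference of 0.56 ± 0.22 that did not pass (adjusted p = 0.0873). The 4-month arrays, at 8.65 and 8.78, also lay above the naive arrays, with a difference of 0.84 ± 0.24 (95% interval 0.34 to 1.34, adjusted p = 0.0728). That difference passed with repeated quantile normalization (0.93, adjusted p = 0.0350). At 4 months against naive lung 0 of the 5 genes were called by limma and 3 had an unadjusted p under 0.05, where 1.97% of all genes were called.

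Csf2 was higher in value at week 2 than at day 4 in both tissues. In the mLN it stood at 8.91, 8.75 and 8.54 at week 2, against 7.87, 8.10 and 8.43 at day 4, a difference of 0.60 ± 0.19 (adjusted p = 0.198). In the lung the difference of the same 2 times was 0.61 ± 0.19 (adjusted p = 0.158). The groups did not overlap in either tissue, and neither difference was called. In the mLN 0 of the 5 genes were called between the times (2 at an unadjusted p under 0.05) against 1.71% of all genes, and in the lung 0 (4 at an unadjusted p under 0.05) against 1.81%. Between 4 months and week 2 in the lung 0 were called (2 at an unadjusted p under 0.05) against 16.4%. The tissue difference in Csf2, mLN minus lung, was -0.30 ± 0.19 at day 4 and -0.31 ± 0.19 at week 2, with overlapping arrays and adjusted p values of 0.726 and 0.686.

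Il9 was at the low end of the scale, with a mean above that of 18.3% of genes and each group mean under the 40th percentile of all gene values (3.73). It stood at 4.19, 3.29 and 2.65 on day 4 lung replicates 1, 2 and 3, against 2.46 and 2.91 on the naive arrays. The other lung arrays ranged from 2.14 to 2.98 and the mLN arrays from 2.30 to 2.96. Only day 4 lung replicates 1 and 2 exceeded 3 among the 16 arrays. The difference of day 4 from naive lung was 0.69 ± 0.34 (adjusted p = 0.175), and no comparison of all arrays called Il9.

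Macrophage marker means on the same day 4 lung replicates were 6.23, 6.13 and 4.56. Week 2 lung replicate 3, at 5.49 in those markers, had the lowest Il9 value of the 16 arrays (2.14). Naive replicate 1, at 4.91, had less Il9 (2.46) than naive replicate 2, at 4.13 (2.91). The part of macrophage transcripts in the Il9 values was not tested. Without day 4 replicate 3, the lowest of that group in Il9, the difference from naive lung was 1.05 and passed (adjusted p = 0.0335). Among the day 4 lung arrays, Il4, Il5, Il13 and Csf2 were each highest on replicate 3, the array of that group lowest in macrophage markers. The part of these markers in that order was not tested.

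**Figure D3:**
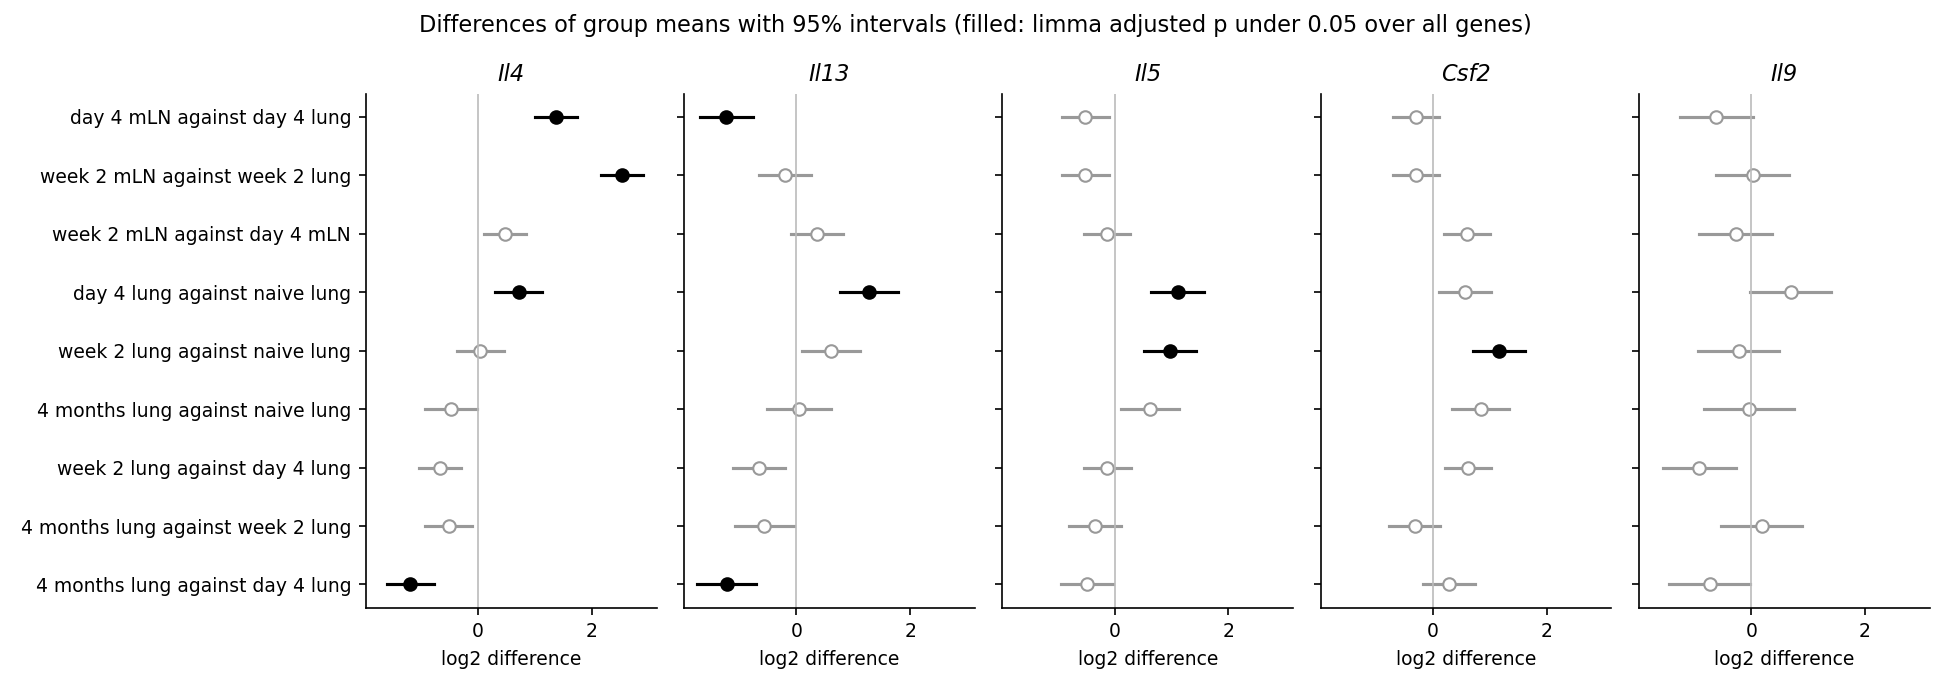
Differences of group means for each gene in 9 comparisons, first-named minus second-named group, on the log2 scale with 95% intervals from limma (filled points passed an adjusted p under 0.05 over all genes). Of the filled points, 10 in all, 3 are Il4 and Il13 between the tissues, with Il4 higher in mLN at both times and Il13 lower in mLN at day 4.

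The order of the 6 groups was read with the spread of the arrays. For Il4 it ran week 2 mLN (7.63 ± 0.24), day 4 mLN (7.16 ± 0.07), day 4 lung (5.78 ± 0.17), week 2 lung (5.10 ± 0.14), naive lung (5.06 ± 0.24) and 4-month lung (4.58 ± 0.24; SD, n = 3 arrays, or 2 for the naive and 4-month groups). Here only week 2 and naive lung overlapped as neighbours in the order. For Il13 it ran day 4 lung (11.66 ± 0.38), week 2 lung (10.99 ± 0.28), week 2 mLN (10.79 ± 0.12), 4-month lung (10.43 ± 0.15), day 4 mLN (10.43 ± 0.15) and naive lung (10.38 ± 0.46). Day 4 lung stood clear of week 2 lung, and week 2 mLN of 4-month lung, while the other neighbours overlapped.

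Il5 and Csf2 were graded rather than split. For Il5 the order was day 4 lung (8.65 ± 0.17), week 2 lung (8.52 ± 0.23), 4-month lung (8.17 ± 0.34), day 4 mLN (8.14 ± 0.12), week 2 mLN (8.0 ± 0.10) and naive lung (7.55 ± 0.44). Of the neighbours in this order, only week 2 mLN and naive lung were separate. For Csf2 the order was week 2 lung (9.04 ± 0.19), week 2 mLN (8.73 ± 0.19), 4-month lung (8.71 ± 0.10), day 4 lung (8.43 ± 0.30), day 4 mLN (8.13 ± 0.28) and naive lung (7.87 ± 0.08), and each pair of neighbours overlapped. For Il9 neighbours overlapped throughout, with means of 2.46 to 3.37.

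The neighbours of these genes on chromosome 11 were measured with them. For 11 neighbouring protein-coding genes from Septin8 to Acsl6, the median difference was -0.13 in week 2 mLN against week 2 lung. Of the 11, 1 was higher and 0 lower there, where 0.78% of all genes were called. The higher one was Slc22a4, a cation transporter, at 0.91 ± 0.19 (adjusted p = 0.0285), with means of 3.45 in mLN and 2.54 in lung that lay under the dim limit, and Il13, the next gene to Il4, was at -0.21 ± 0.22. Il3, the cytokine gene beside Csf2, was at -0.46 ± 0.27 (adjusted p = 0.642), with group means of 2.45 to 2.91 that lay in the dim range. At day 4 against naive lung, 2 neighbours were higher and 0 lower, where 16.6% of all genes were called and 10.8% were higher. These were Rad50, a DNA repair gene between Il13 and Il5 whose end holds the locus control region of the type 2 cytokines, at 1.05 ± 0.24 (adjusted p = 0.00762) and the kinesin gene Kif3a at 1.28 ± 0.37 (adjusted p = 0.0261). Rad50 remained higher at week 2, at 1.22 ± 0.24, and was lower at 4 months than at day 4 by -1.11 ± 0.24.

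**Figure D4:**
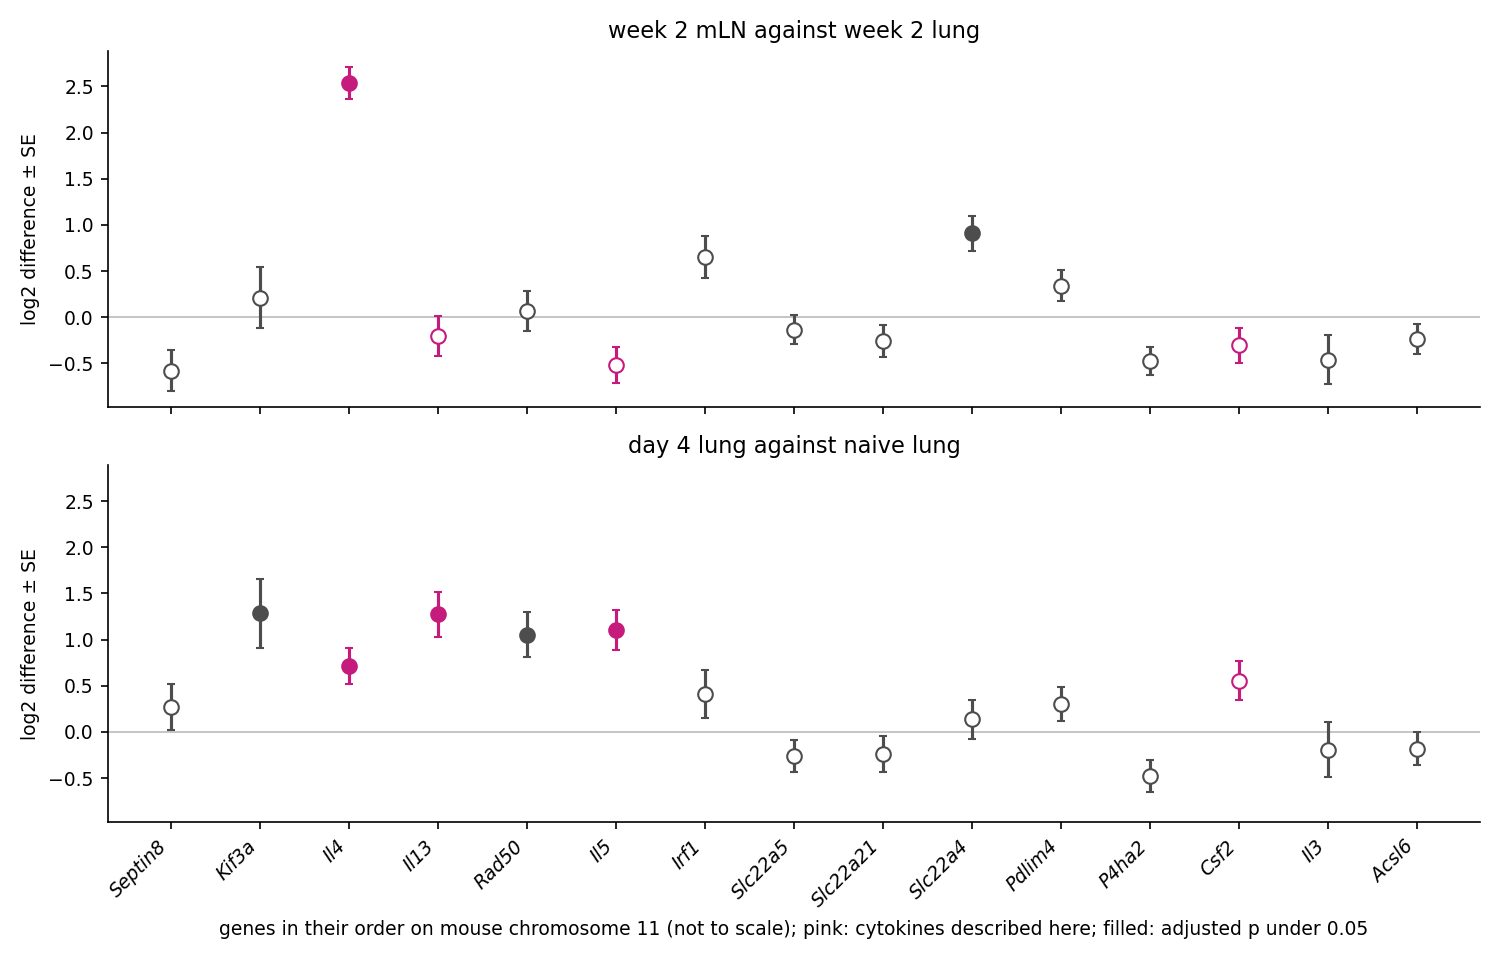
Log2 differences ± SE of genes in their order along chromosome 11, with the cytokines described here in pink and neighbours in grey (filled points passed an adjusted p under 0.05). In week 2 mLN against week 2 lung, Il4 stands at 2.54 and Il13 beside it at -0.21, and in day 4 lung against naive lung the filled points are Kif3a, Il4, Il13, Rad50 and Il5.

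A list of receptor genes for these cytokines, which also held the IL-3 receptor beta chain gene Csf2rb2, had calls in 4 of the 10 comparisons. All 4 were within the lung. Of 8 measured receptor genes, 0 passed between mLN and lung at day 4 or week 2 by limma, where 4 and 3 were lower at an unadjusted p under 0.05. Of all genes 2.33% and 0.78% were called in these comparisons. Il4ra, the chain shared by the IL-4 and IL-13 receptors, averaged 6.28 and 6.69 in day 4 and week 2 mLN, against 6.92 and 7.29 in lung of the same days, and did not pass. Against naive lung, 1 rose and 1 fell at day 4, where 16.6% of all genes were called. Csf2rb2, a beta chain of the mouse IL-3 receptor, rose by 1.13 ± 0.37 (adjusted p = 0.0462), and Il5ra, the IL-5 receptor chain, fell by 1.19 ± 0.32 (adjusted p = 0.0184), both under the dim limit of 3.73 in either group. Csf2rb2 was lower at 4 months than at day 4 by -1.23 ± 0.37 (adjusted p = 0.0233). Csf2ra, the GM-CSF receptor alpha chain, fell by 0.60 ± 0.18 at week 2 against naive lung (adjusted p = 0.0478) and was 0.57 ± 0.18 higher at 4 months than at week 2 (adjusted p = 0.0430). Il9r, the IL-9 receptor chain, averaged 7.99 and 8.18 in day 4 and week 2 mLN and 8.30 to 8.46 in the lung groups, with no call in any comparison.

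Among 44 measured regulators of these genes, 10 rose and 2 fell at day 4 against naive lung (median 0.33, against -0.06 for all genes), where 16.6% of all genes were called. The largest were Irf4, a transcription factor of activated lymphocytes, at 2.89 ± 0.28, and the AP-1 family member Batf3 at 2.38 ± 0.24. The chromatin organiser Satb1, which T cells express abundantly, fell by 1.57 ± 0.28, beside the T cell markers that were higher on the naive arrays. Their part in that fall was not tested. In mLN against lung at day 4, 0 rose and 4 fell: the AP-1 subunits Fosl2 (-2.19 ± 0.35) and Junb (-1.12 ± 0.24), the Ikaros family member Ikzf3 (-1.01 ± 0.23) and Irf4 (-0.97 ± 0.25). In mLN against lung at week 2, 0 of the 44 passed by limma and 10 had an unadjusted p under 0.05 (5 higher and 5 lower). Of all genes 2.33% were called between the tissues at day 4 and 0.78% at week 2. Gata3 averaged 8.96 and 9.04 in day 4 and week 2 mLN and 9.12 and 9.59 in lung of the same days.

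Of 26 other cytokine genes measured, 0 were called higher by limma in mLN than in lung at either time, with 0 and 1 higher at an unadjusted p under 0.05 at day 4 and week 2. There were 4 called lower at day 4 and 3 at week 2, where 2.33% and 0.78% of all genes were called in either direction. At day 4 the largest were Penk, which encodes the opioid precursor proenkephalin, at -1.83 ± 0.28, Il1a at -1.41 ± 0.33 and Tnfsf11, which encodes RANK ligand, at -1.07 ± 0.23. Il1a averaged 2.38 in day 4 mLN, under the dim limit of 3.73, and 3.79 in day 4 lung, just above it. The part of macrophage transcripts in the Il1a difference was not tested. At week 2 the largest were Il2 at -1.86 ± 0.24, Tnf at -1.75 ± 0.32 and Lif at -1.23 ± 0.22. Against naive lung, 5 of the 26 rose and 2 fell at day 4, led by Il6 at 4.19 ± 0.35, and 3 rose and 1 fell at week 2. Of all genes 16.6% and 9.62% were called in these comparisons.

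The genes most like each cytokine over the 16 arrays were found by Pearson correlation among 14005 genes with at least 1 group mean at or above 3.73. They are given as a description, since the arrays share groups and normalization. For Il4 they were Klk8, a kallikrein-related protease (r = 0.952), Dapp1, an adaptor of phosphoinositide signalling (0.949), and P2rx7, a receptor for extracellular ATP (0.942). Each of these had its 6 mLN arrays above its 10 lung arrays, as for Klk8 at 8.73 to 9.25 in mLN and 6.91 to 8.32 in lung. They were picked for likeness to Il4 on the same arrays, so nothing more is read from this split. For Il13 they were Ptpn3 (0.918), Ypel5 (0.898) and N4bp1 (0.891). For Il5 they were Arg1, the arginase that ILC2s express (0.899), the amino acid transporter Slc1a4 (0.877) and Crip2 (0.875). For Csf2 they were the G protein regulator Rgs2 (0.899), Pabpc1, the cytoplasmic poly(A)-binding protein (0.874), and Otud1 (0.864). For Il9 they were Gatm (0.838), the macrophage scavenger receptor Msr1 (0.826) and Il1a (0.816). These 3 met that limit through day 4 lung alone, the group where Il9 was highest, so nothing is read from their likeness.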

How the data were processed

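Gene expression was measured on 16 arrays, 1 per sample. The authors deposited log2 signal for each probe set, computed by RMA in Expression Console, per the submitters' processing notes. RMA corrects background, quantile-normalizes probe signals and summarises probes. The sources used here do not name versions or a genome build. No scanner files were used, so detection and saturation could not be checked. Of 41345 probe sets, 23521 had 1 gene symbol in the platform annotation, which left 22180 genes at 1 probe set each.

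Group means were fitted to all 16 arrays with limma 3.58.1 in R 4.3.3 (10 residual and 6.52 prior degrees of freedom), with no block and no filter. Calls used a two-sided Benjamini-Hochberg adjusted p under 0.05 over all genes. The procedure was tested on simulated data. A group mean was called dim under the 40th percentile of all gene values. Marker means are averages of log2 values.

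The members and lists were chosen with earlier results of these data known. The 5 members are named in each comparison, with the 3 most alike genes of each and up to 3 called genes of the receptor, regulator, neighbour and other-cytokine lists. Other genes were chosen after their values were seen. Promoter sequences are RefSeq's, build GRCm38.p6. The alternatives were array centring, repeated quantile normalization, leaving out dim genes, limma's robust option with a trend, array weights, fitting only the compared groups, averaging probe sets, a replicate block, omitting each array and omitting the lung arrays high in macrophage markers. A fit of 12 arrays and the second Csf2 probe set were added after seeing the data.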

Additional observations from a re-analysis of the deposited data

How the results depend on the processing

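The tissue difference of Il4 at week 2 and that of Il13 at day 4, the rises of Il5 and Il13 at day 4 over naive lung, and the falls of Il4 and Il13 at 4 months relative to day 4 passed under all alternatives and without any 1 array. Of 103 counts of called cytokine genes under other settings 90 stayed within 1.5 times the reported count, as did 71 of 76 with an array left out. At week 2 against naive lung the count was 1 with quantile normalization, array weights or only the compared groups, and 1 to 3 with an array left out. Only naive replicate 1 left out gave 3, with Il13 added at 0.94 (adjusted p = 0.0440). At 4 months against naive lung it was 1 with quantile normalization and 0 to 1 with an array left out. At week 2 against day 4 lung it was 1 with centred arrays, without dim genes or with 12 arrays, 3 with array weights, and 0 to 1 with an array left out. At 4 months against week 2 lung it was 1 with centred arrays and 0 to 1 with an array left out. At day 4, mLN against lung, it was 1 without the 3 macrophage-high arrays, and for the change in mLN against that in lung it was 1 with array weights, 12 arrays or only the compared groups. The causes were not tested. The counts of all genes called moved more: from 3677 at day 4 against naive lung to between 688 and 3742, from 2134 at week 2 to between 525 and 2274, from 436 at 4 months to between 0 and 1412, and from 173 for week 2 mLN against lung to between 74 and 692. Differences that changed sign had not been called. With quantile normalization these were -0.12 for Il4 and 0.0031 for Il9 at week 2 against naive lung, 0.12 for Il5, -0.10 for Il9 and 0.057 for Csf2 at 4 months against week 2, and 0.075 for Il5 at 4 months against day 4. Centred arrays gave -0.052 for Il13 at 4 months against naive lung, and 0.055 for Il5 and 0.049 for Csf2 in the change in mLN minus lung. That change in Csf2 was also 0.0018 with array weights, 0.11 with averaged probe sets and 0.23 with its other probe set. Without the 3 macrophage-high arrays Il9 was -0.039 at day 4 against naive lung, 0.11 and -0.14 in mLN against lung at day 4 and week 2, and -0.25 in that change, with Il5 at 0.084 and Csf2 at 0.15. With an array left out, Il4 at week 2 against naive lung spanned -0.13 to 0.21. At 4 months against naive lung Il13 spanned -0.28 to 0.37 and Il9 -0.38 to 0.30. At 4 months against week 2 Il9 spanned -0.16 to 0.52, and in week 2 mLN against lung -0.14 to 0.16. The change in mLN minus lung spanned -0.10 to 0.13 for Il5 and -0.15 to 0.15 for Csf2. Whether the replicate numbers pair the arrays was not settled. Deviations of same-numbered arrays correlated at -0.10 to 0.18 and those of different-numbered arrays at -0.17 to 0.09. Between day 4 lung and day 4 mLN the same-numbered values were 0.09, 0.03 and 0.18. The fit with the replicate number as a block called 1 of the 5 cytokine genes in week 2 mLN against lung (Il4, 2.54) and changed no count of called cytokine genes. Groups of 2 or 3 arrays, the narrower signal range of the naive and 4-month arrays and the low signal of Il9 limit what these data can show.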
